A study of Mus musculus with 9 samples.

Results

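Histone deacetylases remove acetyl groups from lysines of histones and of other proteins. Of the zinc-dependent enzymes, 10 genes were looked up by symbol in a count matrix of 28052 genes from growing mouse oocytes. Rows were found for 8 of them, namely the class I genes Hdac1, Hdac2, Hdac3 and Hdac8, the class IIa genes Hdac4, Hdac7 and Hdac9, and the class IV gene Hdac11. Hdac5 and Hdac10 were not analysed here. The test of differences between genotypes took in 6 of the 8 genes, since Hdac7 and Hdac11 had too few molecules to pass its filter on low counts. Hdac8 is the X-linked gene of the set and the other 7 are autosomal.

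The data were obtained from XX, XO and XY females at 18 days postpartum (dpp), all labelled C57BL/6. In the study, XY females carried the Y chromosome of the B6.Y-TIR congenic strain and XX females were their littermates, whereas XO females came from a different cross, of males carrying the Paf mutation. The genotype XO can therefore not be told apart from that cross. Ovaries were dissociated, and 30 oocytes were pooled per sample, 10 of 50–55 μm and 20 of 55–60 μm in diameter, with 3 pools for each genotype. RNA was read with a Smart-seq3 protocol that counts unique molecular identifiers (UMIs) at the 5′ end of transcripts, and ERCC spike-ins were added to each pool.

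Class I enzymes work mostly in the nucleus as the catalytic subunits of co-repressor complexes. HDAC1 and HDAC2 are close paralogs that enter the NuRD, SIN3 and CoREST complexes, HDAC3 is the subunit of the NCoR and SMRT complex, and HDAC8 acts outside these complexes and deacetylates the cohesin subunit SMC3. Class IIa enzymes shuttle between nucleus and cytoplasm, bind MEF2 transcription factors and have little catalytic activity of their own, and HDAC11 is the single class IV enzyme. In mouse oocytes HDAC2 is known as the main deacetylase of histones during growth. Both X chromosomes of an XX oocyte are active during this phase, whereas XO and XY oocytes have a single X chromosome.

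The pools held 2130145 to 3157338 UMIs on genes and 18334 to 21044 detected genes. Levels are given as normalized CPM. For these, the UMIs of a gene are taken relative to the pool's gene total and divided by a spike-in factor. On this scale 1 UMI was worth 0.302 to 0.565 normalized CPM. The factor is a TMM factor computed among the ERCC spike-ins. It was 1.13 to 1.25 in XX, 0.703 to 0.847 in XO and 1.01 to 1.16 in XY pools. It does not use the amount of spike-in relative to the genes, so the levels are not amounts per oocyte. Spike-ins made up 0.204 to 0.862% of the UMIs of a pool. The Y-linked gene Ddx3y had 352 to 486 UMIs in XY pools and 0 in each of the 6 other pools, as the labels require. All 11 oocyte markers looked up were present, and their sum ranged from 18821 normalized CPM in XO1 to 43501 in XO3. Of 10 granulosa cell markers 7 had a row, with a sum of 48.0 to 92.1 normalized CPM that overlapped between the genotypes. Of these, Nr5a2 had 21.9 to 51.6, Cyp19a1 3.62 to 44.4 and Kitl 5.69 to 19.2 normalized CPM, whereas Inha was at 0 in 8 of the 9 pools and Wt1 at 0 in 6. Theca and stroma markers summed to 2.13 to 8.55 normalized CPM. Those of endothelium and blood, 3 of 6 with a row, summed to 110 in XO2 and 132 in XO3, against 16.1 to 59.2 in the other pools. In XO2 and XO3 this was nearly all Pecam1 (109 and 132), while Cdh5 was at 0.517 and 0.565 and Lyz2 at 0. The part of RNA from other cells in the deacetylase levels was not tested. XO1 and XY1 stood apart, with 13.1% and 10.8% of gene UMIs on mitochondrial genes against 2.65 to 6.02% in the 7 other pools.

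The results turned on Hdac2, which was the steadiest and highest member, and on Hdac8 and Hdac9. By unadjusted p, Hdac8 was called as higher in XX than in XO and XY, and Hdac9 as lower in XX than in XO. Neither gene passed after adjustment in the reported fit. The Hdac9 call was lost under some scalings and without XX1, and 16.7% of all genes tested were likewise called lower in XX than in XO. The sequence upstream of the outermost annotated start of Hdac2, Hdac8 and Hdac9 is shown for the contrast in their CG dinucleotides, which are in capitals. The sequences are from the RefSeq table of GRCm38.p6 and are written 5′ to 3′ on the strand of the gene. The first is chr10:36974294-36974543 on the plus strand, the second chrX:102505360-102505408 on the minus strand, where the table reaches 49 bases beyond the start, and the third chr12:34917096-34917345 on the minus strand.
Hdac2: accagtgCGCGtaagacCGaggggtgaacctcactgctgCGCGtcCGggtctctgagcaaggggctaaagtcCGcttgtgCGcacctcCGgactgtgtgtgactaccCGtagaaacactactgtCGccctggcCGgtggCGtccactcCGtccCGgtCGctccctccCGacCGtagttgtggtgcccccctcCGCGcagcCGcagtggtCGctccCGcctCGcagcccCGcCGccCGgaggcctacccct
Hdac8: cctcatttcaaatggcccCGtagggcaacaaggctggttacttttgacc
Hdac9: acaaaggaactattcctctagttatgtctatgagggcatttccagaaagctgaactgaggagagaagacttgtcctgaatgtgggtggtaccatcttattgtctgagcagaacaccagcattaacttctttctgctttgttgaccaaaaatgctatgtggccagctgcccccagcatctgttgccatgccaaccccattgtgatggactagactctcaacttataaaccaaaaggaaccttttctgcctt
The 250 bases before Hdac2 held 27 CG dinucleotides, the 49 bases before Hdac8 held 1, and the 250 bases before Hdac9 held 0. Over the whole window of 300 bases around the start in the table, Hdac2 had 36 CG dinucleotides, Hdac8 had 6 and this Hdac9 window had 0, against a median of 7 over 32851 windows of that length. The table gave a window for 7 of the 10 genes looked up, and a second Hdac9 window, at another start, had 3 CG dinucleotides. Members of low level also had windows rich in them, with 32 for Hdac4, 22 for Hdac11 and 31 and 35 for Hdac7. Further Hdac7 windows had 5 and 6. The number of CG dinucleotides thus did not follow the level of the members. On either strand, the GC box (GGGCGG) was found in the window of Hdac2 and in neither that of Hdac8 nor this one of Hdac9, and it was in 35.7% of all windows. The TATA box letters (TATAAA) were in the windows of Hdac8 and of Hdac9 shown and in 13.6% of all windows. These matches describe the letters, and binding of factors was not measured.

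Hdac2 and Hdac1 had the highest mean levels over the 9 pools, followed by Hdac8. The mean was 34.7 normalized CPM for Hdac2, 23.1 for Hdac1, 21.7 for Hdac8, 8.96 for Hdac3, 6.63 for Hdac4 and 5.26 for Hdac9. Hdac11 had a mean of 1.57 and Hdac7 of 0.359 normalized CPM. Hdac2 was above 87.3% of all genes in the matrix and Hdac7 above 34.0%. Since 5′ UMIs count molecules, the levels were compared without a correction for length. After division by the longest annotated transcript, 6 of the 8 members kept their place, and Hdac1 with 11.3 normalized CPM per kb came just before Hdac2 with 10.7. The difference between Hdac1 and Hdac8 in mean level was far smaller than the range of either gene over the pools, 3.11 to 70.6 and 9.84 to 40.8 normalized CPM. The plot of levels by pool shows Hdac8 below Hdac2 in all XO and XY pools. In XX pools Hdac8 was close to Hdac2 in XX1 (99 against 96 UMIs) and XX2 (80 against 76). It was above Hdac2 in XX3 (134 against 87 UMIs).

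**Figure D1:**
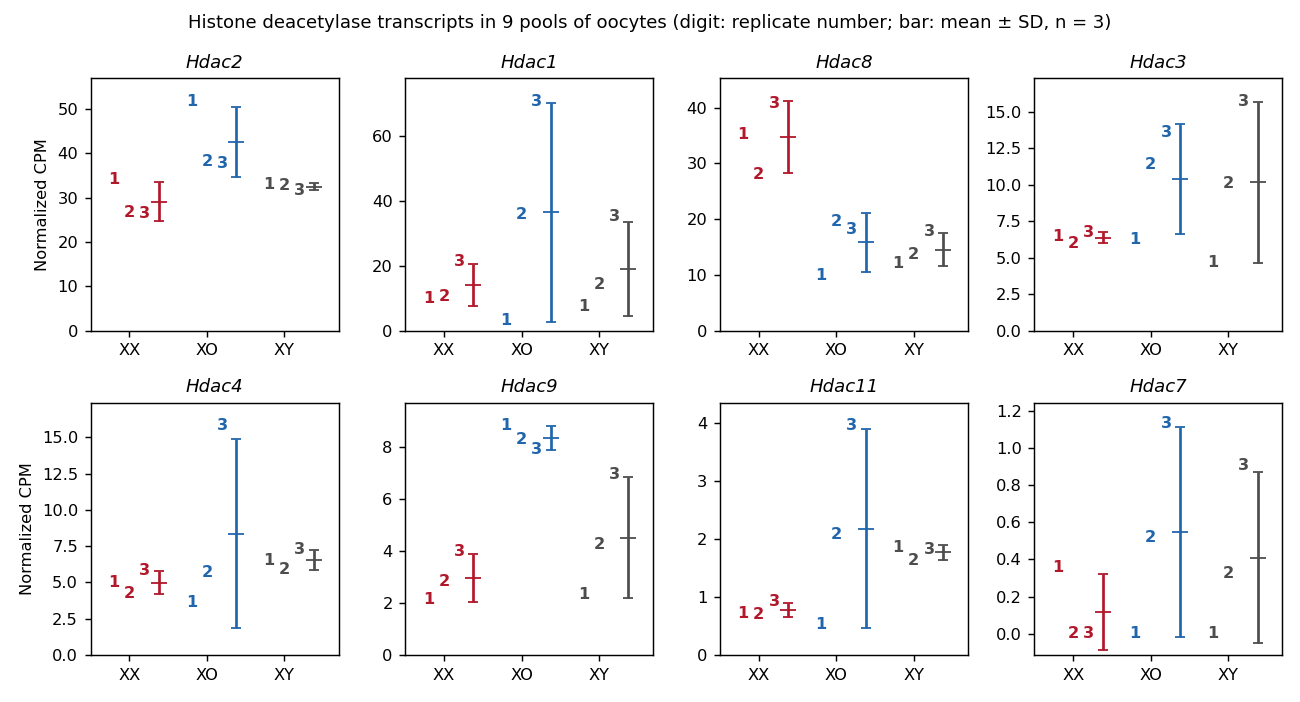
Level of each of the 8 histone deacetylase transcripts in normalized CPM (vertical axis, a scale for each gene) in pools of XX, XO and XY oocytes. Digits are pools by replicate number, and bars are the mean ± SD (n = 3). Hdac8 lies between 28.0 and 40.8 in XX pools and between 9.84 and 19.6 in the 6 other pools, and Hdac1 spans 3.11 to 70.6 within XO alone.

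Hdac8 encodes a class I enzyme and lies at chrX:102284639-102505359 on the minus strand (GRCm38). In XX pools it had 35.3, 28.0 and 40.8 normalized CPM, from 99, 80 and 134 UMIs. In XO pools it had 9.84, 19.6 and 18.1 normalized CPM, from 19, 38 and 32 UMIs. In XY pools it had 12.1, 13.7 and 17.8 normalized CPM, from 26, 42 and 59 UMIs. Every XX pool was above every pool with a single X chromosome, while XO and XY pools overlapped. In pools, less RNA in every oocyte and fewer oocytes with the transcript cannot be told apart.

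Hdac8 transcript levels were 2.19-fold higher in XX than in XO oocytes (34.7 ± 6.43 against 15.8 ± 5.27 normalized CPM, mean ± SD, n = 3 each). The log2 fold change was 1.13 ± 0.34 (SE), with an unadjusted p of 0.00767 and an adjusted p of 0.203 (edgeR quasi-likelihood test, Benjamini-Hochberg over the 10993 genes tested). Against XY oocytes (14.5 ± 2.96 normalized CPM) the levels were 2.38-fold higher, with a log2 fold change of 1.25 ± 0.33 (SE), an unadjusted p of 0.00407 and an adjusted p of 0.425. Calls were made at an unadjusted p of 0.05, and neither difference passed after adjustment. Between XY and XO oocytes the log2 fold change was −0.12, with a 95% interval of −0.88 to 0.64, so XY levels between 0.543 and 1.56 times those of XO are within its error.

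The test relies on the scaling, and the median log2 fold change over all 10993 genes tested was −0.46 for XX against XO, −0.19 for XX against XY and −0.30 for XY against XO. Relative to these medians, Hdac8 was higher in XX by 1.59 against XO and by 1.44 against XY on the log2 scale. The 369 X-linked genes tested had a median of 0.31 for XX against XO and 0.56 for XX against XY. Of these 369 genes, 34 had a higher log2 fold change than Hdac8 for XX against XO and 24 for XX against XY. Both comparisons use the same XX pools and are not independent of each other.

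A ratio within a pool does not depend on the scaling. It does depend on its denominator, here with the variable Hdac1 in it, so its size is not a fold change of Hdac8 alone. Hdac8 UMIs divided by those of the 7 autosomal members gave 0.600, 0.552 and 0.626 in XX pools. The ratios were 0.133, 0.193 and 0.120 in XO pools and 0.217, 0.197 and 0.179 in XY pools. The means were 0.593 ± 0.038 in XX, 0.149 ± 0.039 in XO and 0.198 ± 0.019 in XY (SD, n = 3 each). The smallest XX ratio was thus above the largest of the 6 other pools, and XO and XY overlapped. Of the deacetylase UMIs of a pool, Hdac8 made up 37.2 ± 1.50% in XX, 12.9 ± 2.91% in XO and 16.5 ± 1.30% in XY, and class I genes together 90.5 ± 0.71%, 84.6 ± 1.72% and 85.1 ± 0.74%. With 3 pools against 3, an exact permutation test of a ratio cannot go below p = 0.10, and none was run.

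**Figure D2:**
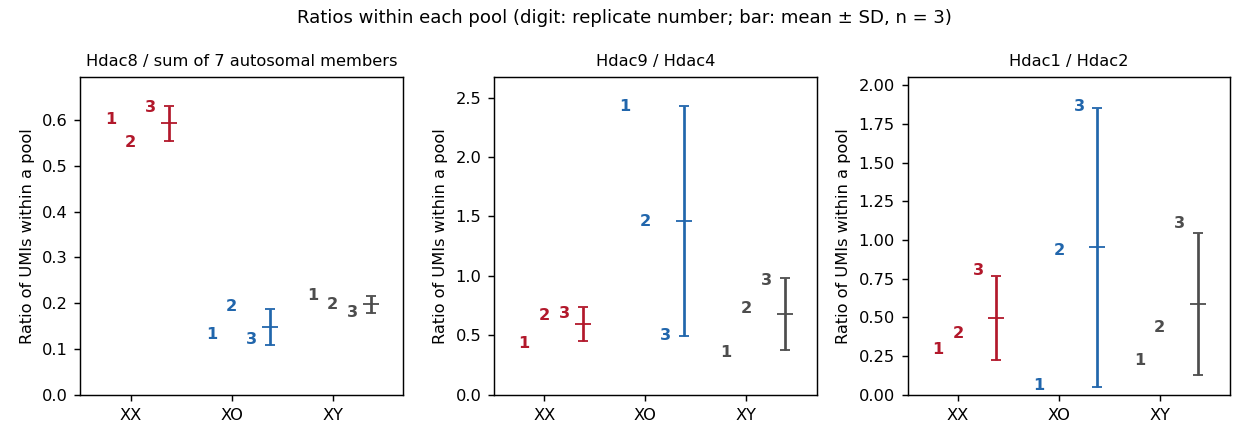
Ratios of UMIs within each pool, without any scaling, for Hdac8 over the sum of the 7 autosomal members, Hdac9 over Hdac4 and Hdac1 over Hdac2 (vertical axes). Digits are pools by replicate number, and bars are the mean ± SD (n = 3). The Hdac8 ratio is 0.552 to 0.626 in XX and 0.120 to 0.217 in the 6 other pools, whereas the Hdac1 to Hdac2 ratio runs from 0.060 to 1.87 in XO.

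Of the 6 members tested, 2 passed the threshold for XX against XO, Hdac8 as higher and Hdac9 as lower in XX. In this comparison 18.1% of all genes tested passed, 1.4% as higher and 16.7% as lower in XX. The 1 lower member among 6 is close to that background share. Among the 369 X-linked genes tested, 67 (18.2%) passed as higher in XX than in XO and 89 (24.1%) as higher in XX than in XY, so the Hdac8 calls were of a kind common on its chromosome. For XX against XY the count was 1 of 6, Hdac8, and 5.8% of all genes passed, 1.41% as higher and 4.39% as lower in XX. For XY against XO none of the 6 members passed (edgeR, unadjusted p of 0.05), and DESeq2 gave 0 as well, against 9.93% of all genes, 1.69% as higher and 8.24% as lower in XY. The reported fit did not pair the pools. With the replicate number as a block on the pools of all genotypes, 1 of 6 passed for XY against XO, which was Hdac9 as lower in XY. Its log2 ratios of XY to XO within numbers 1, 2 and 3 were −1.92, −0.97 and −0.19.

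After adjustment, 0 of the 6 members passed in any comparison in the reported edgeR fit. Of all genes, 0% passed for XX against XO, 0.0819% for XX against XY and 0.0364% for XY against XO. DESeq2 gave 1 member after adjustment both for XX against XO and for XX against XY, which was Hdac8 each time. Of all 10993 genes it passed 178 and 80 in these comparisons. With 1 surrogate variable as covariate, in edgeR where the study used limma, the adjusted p of Hdac8 was 0.000242 against XO and 0.000512 against XY. As in the reported fit, most calls for XX against XO were lower in XX in that model, 3517 beside 671 higher. The study instead reported many autosomal genes at lower transcript levels in XO than in XX oocytes. With the surrogate variable, Hdac9 and Hdac2 also passed after adjustment for XX against XO, with log2 fold changes of −1.42 and −0.58. Over all genes, 2840 of 10993 then passed after adjustment for XX against XO and 1076 for XX against XY. The surrogate variable is estimated from the same 9 pools, and the range of adjusted p for Hdac8 over 20 alternatives was 0.000242 to 0.918 against XO and 0.000512 to 1.00 against XY.

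**Figure D3:**
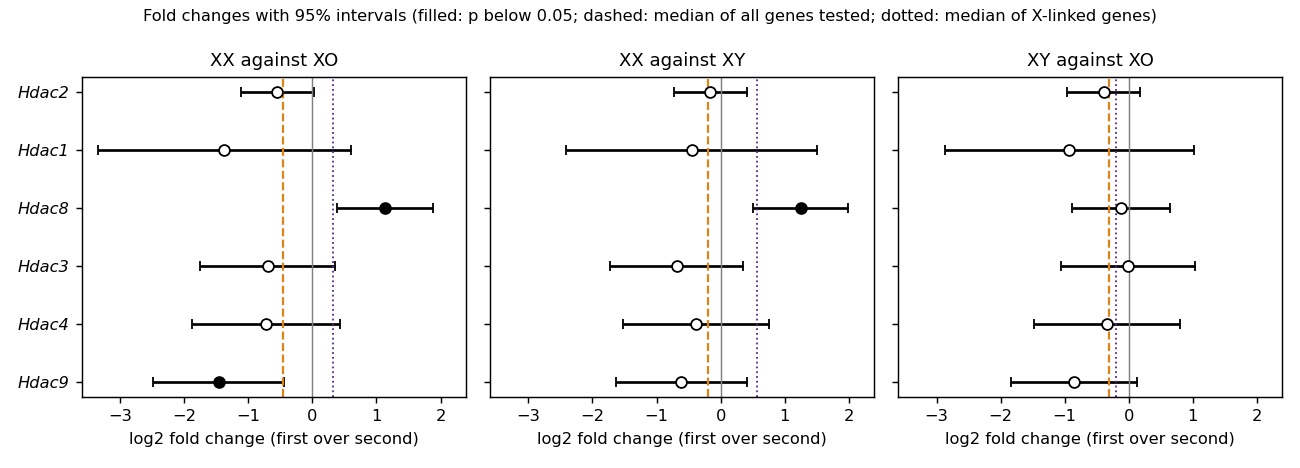
Log2 fold change (horizontal axes, edgeR) with its 95% interval for the 6 members tested in each comparison, filled where the unadjusted p was below 0.05. The dashed line is the median of all genes tested and the dotted line that of the X-linked genes. Hdac8 lies at 1.13 and 1.25 in the comparisons of XX and at −0.12 for XY against XO, and Hdac9 is the filled point on the left at −1.47.

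Hdac9, a class IIa gene at chr12:34047580-34917095 on the minus strand, had 2.14, 2.80 and 3.96 normalized CPM in XX pools. In XO pools the levels were 8.80, 8.27 and 7.90, and in XY pools 2.32, 4.23 and 6.94 normalized CPM. These rest on 6 to 13 UMIs a pool in XX, 14 to 17 in XO and 5 to 23 in XY. In normalized CPM the 3 XO pools lay above all 6 others, and XX and XY overlapped. The separation of XO from XY rests on the spike-in scaling. As a share of gene UMIs, XY3 (23 of 3157338) was above XO2 (16 of 2285008) and XO3 (14 of 2519979).

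Hdac9 levels were 2.76-fold lower in XX than in XO oocytes, with a log2 fold change of −1.47 ± 0.45 (SE), an unadjusted p of 0.00960 and an adjusted p of 0.203 (edgeR). Relative to the median of all genes the difference was −1.01 on the log2 scale. The call was lost with gene totals as the scaling (−0.89), with spike-in totals (−0.49) and without XX1 (−1.12). For XX against XY the log2 fold change was −0.61 with a 95% interval of −1.63 to 0.41. For XY against XO it was −0.85, with an interval of −1.84 to 0.13 and an unadjusted p of 0.0828 (edgeR). With the replicate number as a block this last value became −0.93 with an unadjusted p of 0.0464 (edgeR), which is past the threshold, and with the block and TMM factors on the genes it was −0.74 with an unadjusted p of 0.120 (edgeR), which is not. Within the pools, the ratio of Hdac9 to Hdac4 was 0.429 to 0.684 in XX, 0.500 to 2.43 in XO and 0.357 to 0.958 in XY, and the 3 ranges overlapped. An overlapping gene on the same strand, Gm47357, had 37 UMIs over the 9 pools against 115 for Hdac9, and molecules from the shared stretch cannot be assigned with certainty.

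**Figure D4:**
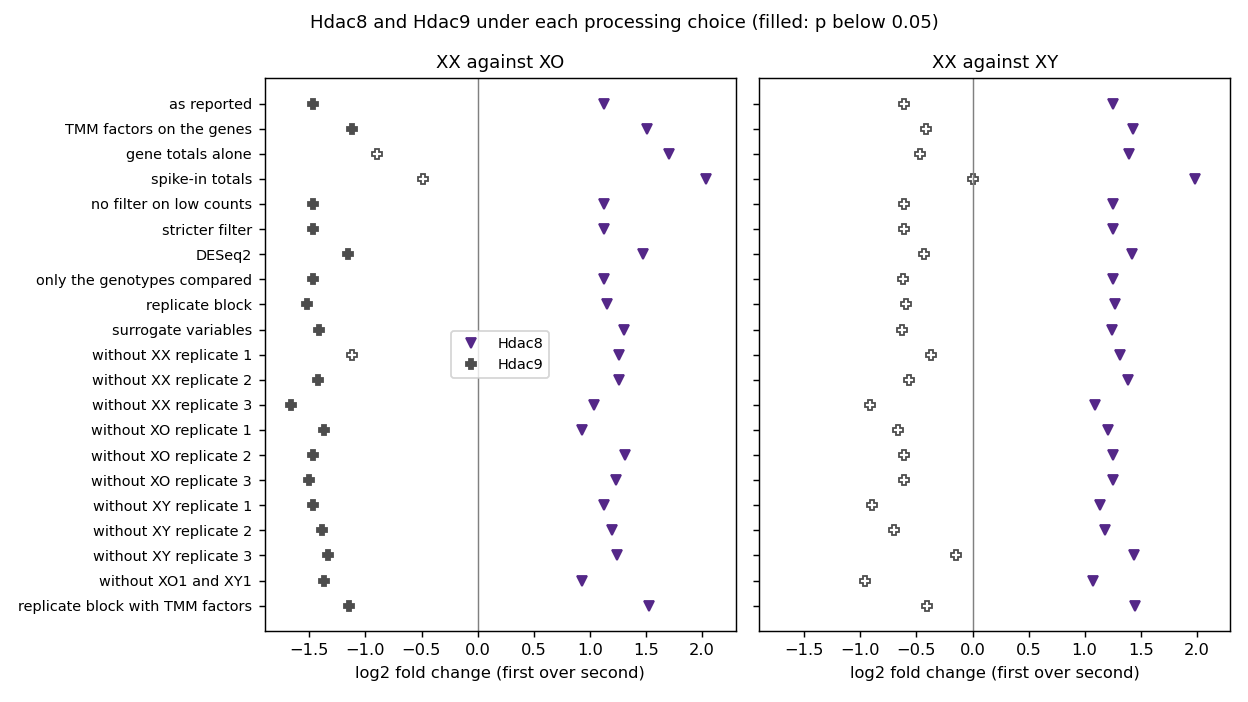
Log2 fold change (horizontal axes) of Hdac8 and Hdac9 for XX against XO and XX against XY under each scaling, filter, tool, covariate and set of pools (vertical axis), filled where the unadjusted p was below 0.05. Hdac8 stays between 0.93 and 2.04 against XO and between 1.08 and 1.99 against XY with every point filled, whereas Hdac9 runs from −1.66 to −0.49 against XO with 17 of 20 alternatives filled.

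Hdac2, which lies at chr10:36974544-37001889 on the plus strand, was the steadiest member. It had 34.2, 26.6 and 26.5 normalized CPM in XX pools, 51.8, 38.3 and 37.8 in XO pools and 33.0, 32.9 and 31.7 in XY pools. Its coefficient of variation over the 9 pools was 0.219, and 9.75% of the genes tested had a lower one. In normalized CPM all XO pools were above all XX and XY pools. As a share of gene UMIs they were not, with XX1 (96 of 2494515) above XO3 (67 of 2519979).

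None of the comparisons of Hdac2 passed the threshold in the reported fit. The log2 fold change was −0.55 ± 0.26 (SE) for XX against XO, with an unadjusted p of 0.0578 (edgeR) and a 95% interval of −1.12 to 0.02. It passed with the surrogate variable and with the replicate block (−0.55, unadjusted p of 0.0418, edgeR), but not with the block and TMM factors on the genes (−0.20, unadjusted p of 0.462, edgeR), and it was 0.35 with spike-in totals as the scaling. Relative to the median of all genes it was −0.09, so Hdac2 stood close to the middle of the transcriptome in this comparison. For XX against XY and XY against XO the values were −0.16 and −0.39, with intervals of −0.73 to 0.41 and −0.96 to 0.18. The share of all genes tested whose 2 genotypes did not overlap was 16.4% for XX against XO, 15.8% for XX against XY and 10.2% for XY against XO. Among the members, 3, 2 and 2 of 6 did not overlap in these comparisons.

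Hdac1, the paralog of Hdac2 at chr4:129516104-129542713 on the minus strand, varied most among the members tested. Its levels were 9.97, 10.5 and 21.3 normalized CPM in XX pools, 3.11, 35.7 and 70.6 in XO pools and 7.44, 14.3 and 35.0 in XY pools. The highest pool, XO3, had 22.7 times the level of the lowest, XO1. The UMIs of these pools were 125 (exact 95% Poisson interval 104 to 149) and 6 (2.20 to 13.1), so that counting error alone does not cover the gap. Intervals cover counting error only. Within each genotype the pool numbered 1 was the lowest and the pool numbered 3 the highest, and all 3 genotypes overlapped.

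The log2 fold change of Hdac1 was −1.38 ± 0.88 (SE) for XX against XO, with an unadjusted p of 0.151 (edgeR) and an interval of −3.35 to 0.60. It was −0.45 (−2.41 to 1.51) for XX against XY and −0.93 (−2.88 to 1.02) for XY against XO. Single XO pools moved the first value, which was −1.89 with an unadjusted p of 0.00666 without XO1 (edgeR). Without XO3 it was −0.47, the other end of the range over left-out pools. Compared within replicate numbers, the log2 ratio of XX to XO was 1.68 in number 1, −1.76 in number 2 and −1.73 in number 3. In the values from which the authors regressed batch effects, the difference of XX and XO means was 1.13 in favor of XX, the opposite direction, and no test was run on it. The sign of the Hdac1 difference thus depended on the replicate number and on the processing. A pseudogene copy, Gm10093, had 5 UMIs over the 9 pools, against 504 for Hdac1.

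The ratio of Hdac1 to Hdac2 within a pool spread accordingly. It was 0.292, 0.395 and 0.805 in XX pools, 0.060, 0.932 and 1.87 in XO pools and 0.225, 0.436 and 1.10 in XY pools. The pools with the lowest Hdac1 in XO and XY, XO1 and XY1, were those with the high mitochondrial share, 13.1% and 10.8%. Of the 11 oocyte markers, 10 were lowest in XO1 among XO pools and 9 were lowest in XY1 among XY pools, while Oosp1 was highest in both. For Zp3, which encodes a protein of the zona pellucida, the levels were 64.5, 49.0 and 155 normalized CPM in XX pools, 12.4, 341 and 570 in XO pools and 21.8, 73.6 and 169 in XY pools. The part of these differences between pools in the Hdac1 values was not tested. What a replicate number marks is not stated in the labels or the methods of the study.

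Hdac3 and Hdac4, members of lower level, correlated with Hdac1 over the pools. Across the 9 pools, Pearson's r with Hdac1 on log2 values was 0.81 for Hdac3, 0.80 for Hdac4, 0.28 for Hdac8, 0.39 for Hdac9 and −0.25 for Hdac2. For Hdac7 and Hdac11, at few UMIs, it was 0.82 and 0.79. In XY pools, however, Hdac4 lay within 5.86 to 7.24 normalized CPM while Hdac1 ran from 7.44 to 35.0. The pools share depth and library between genes, and the values are descriptions only. The plot of deviations by pool shows that Hdac2 stayed within 0.29 of its genotype's mean on the log2 scale, and that Hdac1 ran from −2.43 to 1.70.

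**Figure D5:**
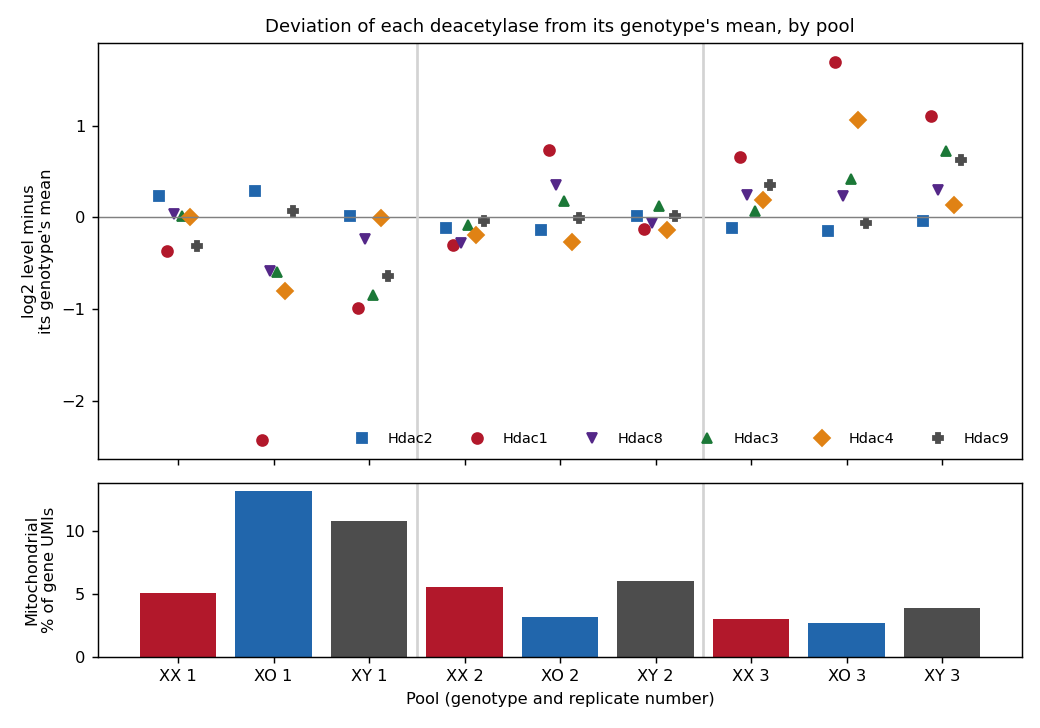
Upper panel, log2 level of each of the 6 tested members minus its genotype's mean (vertical axis) in the 9 pools, ordered by replicate number. Lower panel, percent of gene UMIs on mitochondrial genes, as bars from 0. Hdac1 lies lowest in XO1 at −2.43 and highest in XO3 at 1.70, and the mitochondrial share is highest in XO1 (13.1%) and XY1 (10.8%).

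The genes whose levels were most like those of the 2 highest members were looked up among the genes that averaged 10 normalized CPM or more. For Hdac2 these were Mapk8, Pik3ca and Arfgef3, with Pearson's r of 0.95, 0.95 and 0.94 and Spearman's rho of 0.92, 0.80 and 0.92 over the 9 pools. For Hdac1 they included Sar1b and Lrig1, with r of 0.99 each and rho of 1.00 and 0.97. Of 7275 other genes, 1405 had r above 0.9 with Hdac1 and 30 with Hdac2. For Hdac8 and Hdac9 the numbers were 13 and 7. The pattern of Hdac1 over the pools was thus shared with many genes, while that of Hdac8 was shared with few.

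Hdac3 and Hdac4 did not pass the threshold in the reported fit. Hdac3, on chromosome 18, had 6.41, 5.95 and 6.70 normalized CPM in XX pools, 6.21, 11.4 and 13.5 in XO pools and 4.65, 10.1 and 15.7 in XY pools. The 3 XX pools lay close together inside the wide range of the others. Its log2 fold changes were −0.70 (95% interval −1.76 to 0.36) for XX against XO, −0.69 (−1.73 to 0.35) for XX against XY and −0.01 (−1.06 to 1.03) for XY against XO. Without XY1 the second value was −1.02 with an unadjusted p of 0.0391 (edgeR), which is past the threshold, and it also passed with the surrogate variable (−0.66). Without both XO1 and XY1 the first was −0.92 (unadjusted p of 0.0312, edgeR) and the second −1.08 (0.0102).

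Hdac4, a class IIa gene on chromosome 1, had 4.99, 4.20 and 5.79 normalized CPM in XX pools, 3.62, 5.69 and 15.8 in XO pools and 6.51, 5.86 and 7.24 in XY pools. All XY pools were above all XX pools, and XO covered both. The log2 fold changes were −0.73 (−1.88 to 0.43) for XX against XO, −0.38 (−1.52 to 0.76) for XX against XY and −0.34 (−1.49 to 0.80) for XY against XO. The first value was −1.06 with an unadjusted p of 0.0468 without XO1 (edgeR) and 0.10 without XO3. One pool at either end thus set its size and sign.

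Hdac7 and Hdac11 were near the limit of detection. The UMIs of Hdac11, on chromosome 6, were 2, 2 and 3 in XX pools, 1, 4 and 7 in XO pools and 4, 5 and 6 in XY pools. Hdac7, on chromosome 15, had 1, 0 and 0 UMIs in the XX pools, while XO pools had 0, 1 and 2 and XY pools 0, 1 and 3. A count of 0 over the pools of a genotype would allow up to 3 UMIs, or 0.335 normalized CPM in XX pools, 0.532 in XO pools and 0.351 in XY pools. Mean Hdac7 levels of 0.119 in XX, 0.549 in XO and 0.410 in XY were near these limits, and no difference was detectable at this depth. Of Hdac11, XX pools had 0.700 to 0.914 and XY pools 1.63 to 1.86 normalized CPM, without overlap, but the gene was outside the test.

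Over the 6 members tested, the median log2 fold change was −0.71 for XX against XO, −0.42 for XX against XY and −0.37 for XY against XO, beside −0.46, −0.19 and −0.30 for all genes tested. With TMM factors computed on the genes, the medians over all genes were −0.11, −0.01 and −0.13, and those of the members −0.30, −0.22 and −0.17. With spike-in totals as the scaling, the medians were 0.42, 0.49 and −0.11 over all genes and 0.14, 0.28 and −0.20 over the members, so a direction for the deacetylases as a group depends on the scaling. The Hdac8 call did not.

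Partners, opponents and readers of the deacetylases were taken from 9 lists. Of 56 genes tested on them, 10 were lower and 0 higher in XX than in XO, which is 17.9% lower beside 16.7% of all genes. For XX against XY, 1 was higher (1.79%) and 2 were lower (3.57%), beside 1.41% and 4.39% of all genes. For XY against XO, 0 were higher and 6 lower (10.7%), beside 1.69% and 8.24% of all genes. The list genes thus passed in shares near those of all genes. None passed after adjustment. With gene totals as the scaling, 5 were higher and 0 lower for XX against XO, so that these directions rest on the scaling too.

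Of the NuRD list, which holds the chromatin remodelling partners of HDAC1 and HDAC2, 1 of 8 tested genes was lower in XX than in XO. It was Mbd2, a binder of methylated DNA, with 12.6 ± 3.88 normalized CPM in XX pools, 36.6 ± 24.4 in XO pools and 10.9 ± 4.42 in XY pools (SD, n = 3 each). Mbd2 was also lower in XY than in XO, with log2 fold changes of −1.52 and −1.72, calls that held under 15 and 17 of 20 alternatives. Rbbp7, an X-linked histone-binding subunit, was the 1 NuRD gene that was higher in XX than in XY, with 225 ± 30.4 against 114 ± 28.6 normalized CPM and a log2 fold change of 0.98 ± 0.39 (SE, unadjusted p of 0.0314, edgeR). This call held under 17 of 20 alternatives. In XO pools Rbbp7 had 150 ± 78.2 normalized CPM.

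Of the SIN3 list, 1 of 12 genes was lower in XX than in XO, which was the scaffold Sin3a with a log2 fold change of −0.81 that became 0.07 with spike-in totals. For XX against XY 1 of 12 was lower, Arid4a (−0.98). The NCoR and SMRT list had 1 of 2 lower for XX against XO, Tbl1xr1 (−0.88, and 0.07 with spike-in totals). Among MEF2 factors and the SIK kinases, which phosphorylate class IIa enzymes, 0 of 4 passed for XX against XO and 1 of 4 for XX against XY, Sik3 as lower in XX (−0.89). The calls held under 6 of 20 alternatives for Sin3a, 12 for Tbl1xr1, 10 for Arid4a (−0.34 with spike-in totals) and 9 for Sik3 (−0.16 with spike-in totals).

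Of the cohesin genes, which include the HDAC8 substrate SMC3, 2 of 9 were lower in XX than in XO and 1 of 9 lower in XY than in XO. The second gene for XX against XO, named after its value was seen, was Stag3 (−1.47), at a mean of 4.33 normalized CPM. Esco2, which encodes an acetyltransferase of SMC3, was lower in both comparisons, with 142 ± 8.78 normalized CPM in XX pools, 312 ± 79.9 in XO pools and 163 ± 16.4 in XY pools. Its log2 fold change was −1.14 ± 0.29 (SE) for XX against XO, with an unadjusted p of 0.00294 (edgeR), and −0.94 for XY against XO, a call that held under 17 of 20 alternatives. The first call was lost with gene totals (−0.54) and spike-in totals (−0.20), and it held under the 18 other alternatives.

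Sirtuins are NAD-dependent deacylases outside the zinc-dependent family. Of 4 tested, 1 was lower in XX than in XO and in XY than in XO, which was Sirt5 (−1.98 and −1.83), a desuccinylase of mitochondria. Of 7 histone acetyltransferases, which oppose the deacetylases, 3 were lower in both comparisons, with Kat6b (−1.20 and −1.28) as the most changed one of at least 10 normalized CPM in each, beside 16.7% and 8.24% of all genes. The Kat6b calls held under 6 of 20 alternatives for XX against XO, with −0.77 for TMM factors on the genes and −0.21 for spike-in totals, and under 11 of 20 for XY against XO. Those of Sirt5 held under 16 and 15 of 20. The other two, Kat6a (−1.06 and −1.19) and Ep300 (−0.64 and −0.63), were named after their values were seen. Of 4 BET readers of acetylated lysine, 0 passed in any comparison (edgeR). The XO levels of Sirt5, at 20.6 ± 18.7 normalized CPM, and of Kat6b, at 63.5 ± 41.4, varied widely between pools. Without XO3, 2 of the 56 list genes were lower in XX than in XO, and without XO1, 20 of 58.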

How the data were processed

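The data comprised 9 pools of mouse oocytes, 3 each of XX, XO and XY. According to the labels and the study's methods, HISAT2 was the aligner, run in stranded mode against GRCm38 with Gencode transcripts (versions not given in the sources used here), and the authors deposited the UMIs of 5′ exons as counts for 28052 genes and 79 ERCC spike-ins. The deposited normalized CPM is a signal, equal to the count's share of the gene total, on the CPM scale, divided by the TMM factor of the spike-ins. A deposited log2 matrix, in which the authors regressed out batch effects, was used for 1 alternative without a test. The XO column without a number was taken as XO1.

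Genes were matched by symbol, and the members, lists and tests were chosen with earlier results of these data known. Counts were tested with edgeR 4.0.16 (glmQLFit and glmQLFTest, two-sided, filterByExpr by genotype, spike-in TMM factors equal to those of the authors), with all 9 pools in 1 fit. A call is an unadjusted p below 0.05, and Benjamini-Hochberg values over 10993 genes stand beside it. Standard errors were derived from the moderated F statistic, as the absolute log2 fold change divided by the square root of F. Intervals of 95% were built from these. Of the authors' model of limma with sva covariates, edgeR with 1 surrogate variable (sva 3.50.0) was the alternative. Further alternatives were other scalings and filters, DESeq2 1.42.0, the replicate number as a block and pools left out. The test routine was checked for false calls and recovery of known changes on simulated counts. These had a single dispersion and no pool effects and were scaled by gene totals, so the spike-in scaling was not covered. Pools of a genotype are biological triplicates according to the study's methods.

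Named besides the members were, for each list and comparison, the called genes of at least 10 normalized CPM with the highest and the lowest log2 fold change, and the 3 genes most like each of the 2 highest members (log2 of normalized CPM plus 1). Some genes that this rule takes in are not reported here. Whether replicate numbers pair the pools was checked with the correlation of deviations from genotype means, which was 0.830, 0.278 and 0.773 for XY with XO, 0.468, −0.447 and 0.679 for XX with XO, and 0.435, −0.06 and 0.726 for XX with XY. These values do not settle whether the numbers pair the pools. For XY with XO the value was 0.278 in number 2. For XX it was −0.447 with XO in that number, but 0.679 with XO and 0.726 with XY in number 3. The reported fit therefore used no pairing. The replicate number was a block only in alternatives, where it was put on the pools of all genotypes, XX included. Coordinates are from Gencode vM21 (GRCm38).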

Additional observations from a re-analysis of the deposited data

How the results depend on the processing

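Each of the 6 members tested was refitted under 20 alternatives in each of the 3 comparisons, 360 values in all, of which 303 kept their direction and side of the threshold, 16 passed newly, 3 were lost and 38 changed sign. The calls of Hdac8 held under all 20 alternatives in both comparisons of XX. The number of members called for XX against XO was 1 with gene totals, 1 with spike-in totals, 0 after adjustment, 5 without XO1 and XY1 and 1 to 4 with single pools left out. Over all genes, 1407 of 10993 were called with gene totals, 343 with spike-in totals and 4548 of 11428 without XO1 and XY1. Single pools left out gave 828 to 4073 calls, of 11371 to 11623 genes. For XX against XY it was 2 with the surrogate variable, 2 without XO1 and XY1, 0 after adjustment and 1 to 2 with single pools left out. Calls over all genes were 2518 with the surrogate variable, 1896 without XO1 and XY1 and 384 to 1280 with single pools left out. For XY against XO it was 1 without the filter on low counts, 1 with the surrogate variable, 1 with the replicate block and 0 to 1 with single pools left out. Calls over all genes were 2735, 3119 and 1827 in the first 3 of these settings and 373 to 3470 with single pools left out. The block also called Hdac2 for XX against XO and changed no other call of a member. Both calls gained under the block, of Hdac2 and of Hdac9, were absent when TMM factors on the genes were used with it. The causes were not tested.

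Sign changes were all of values that had not passed. With spike-in totals, the log2 fold change for XX against XO became 0.35 for Hdac2, 0.12 for Hdac3 and 0.15 for Hdac4, that for XX against XY 0.19 for Hdac1, 0.54 for Hdac2, 0.36 for Hdac4 and 0.00423 for Hdac9, and that for XY against XO 0.30 for Hdac3 and 0.052 for Hdac8. With gene totals, Hdac2 was at 0.00411 for XX against XO, and for XY against XO Hdac2 was at 0.032, Hdac3 at 0.44, Hdac4 at 0.14 and Hdac8 at 0.32. With TMM factors on the genes, Hdac2 was at 0.00826 for XX against XY, and Hdac3 and Hdac8 at 0.19 and 0.082 for XY against XO. Adding the replicate block to these factors gave 0.000184, 0.15 and 0.083. For XY against XO, DESeq2 gave 0.17 for Hdac3 and 0.060 for Hdac8, the surrogate variable 0.18 for Hdac1, 0.23 for Hdac3 and 0.057 for Hdac8, the fit of 2 genotypes 0.069 for Hdac3, and leaving out XO1 and XY1 0.16 for Hdac3. In the batch-regressed values, XX minus XO was 1.13 for Hdac1, 0.33 for Hdac3 and 0.49 for Hdac4, and XY minus XO 1.27 for Hdac1, 0.69 for Hdac3, 0.73 for Hdac4 and 0.62 for Hdac8. With single pools left out, Hdac4 ran from −1.06 to 0.10 for XX against XO, Hdac1 from −0.94 to 0.36 for XX against XY, and for XY against XO Hdac3 from −0.36 to 0.32, Hdac4 from −0.64 to 0.49 and Hdac8 from −0.28 to 0.065.

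Over all genes, the share of calls that were higher in the first genotype was 7.75% for XX against XO, 24.3% for XX against XY and 17.0% for XY against XO. It was 35.8%, 51.9% and 36.9% with TMM factors on the genes, 70.1%, 45.4% and 82.4% with gene totals and 84.5%, 85.9% and 46.3% with spike-in totals. Calls for XX against XO numbered 1986 as reported, 4073 without XO1 and 4188 with the surrogate variable. Depth limited Hdac7 and Hdac11, with 8 and 34 UMIs in all.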
